A study of Mus musculus with 32 samples.

Results

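The comparison covered 4 of the 32 RNA libraries of a study of induced Trex1 loss in bone marrow-derived macrophages (BMDMs). They were 2 libraries of 4-hydroxytamoxifen (4-OHT)-treated Trex1 FL/FL cells from day 2 after the end of exposure and 2 libraries of the same genotype and treatment from day 1, chosen by their labels for genotype, treatment and time point. BMDMs were differentiated from mouse bone marrow in medium with L929 supernatant, and both alleles of Trex1 carried loxP sites. All mice of the study carried a Cre-ERT2 knock-in in the Rosa26 locus, which is active in most cell types, so the Cre was present in every group. Treated cells received 2 µg/ml 4-OHT for 22 h, and untreated cells have no vehicle named in their labels. The change from day 1 to day 2, called the day step below, was set beside that of 3 other arms: 4-OHT-treated cells of Trex1 WT/FL mice, which keep a wild-type allele, untreated Trex1 FL/FL cells and untreated Trex1 WT/FL cells. Each arm had 2 libraries per day. The labels name no animal, culture or batch for any library, so the p-values below measure the spread between these libraries, which may be technical. The ages of the mice are not given in the labels.

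TREX1 is the main 3′ exonuclease of the cytosol and degrades DNA there. Cytosolic DNA is otherwise bound by cGAS, whose product cGAMP activates STING, and STING drives the kinase TBK1 and the transcription factors IRF3 and NF-κB. IRF3 turns on type I interferon (IFN), which acts through its receptor on the same and on neighbouring cells, and signalling from this receptor then induces the IFN-stimulated genes (ISGs). Macrophages respond strongly to IFN, and loss of TREX1 causes Aicardi-Goutières syndrome in humans.

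The total estimated count of the 4 libraries ranged from 37495466 to 44606103 (median 42252749), within the 35120505 to 63760884 of all libraries. Of 54281 gene identifiers, 15257 passed the filter on low counts and were tested. Levels are given as CPM, that is estimated counts scaled to a common library size with TMM factors, and compare libraries, not genes of different length. All 9 macrophage markers were present, with a summed level of 15620 to 17460 CPM on day 1 and of 27040 to 29070 CPM on day 2. The neutrophil list summed to 12.1 to 14.7 CPM on day 1 and 6.51 to 7.13 CPM on day 2, with Ly6g at 0, and the lists for dendritic, B, NK, mast, erythroid and stromal cells stayed below 1.5 CPM. The T cell list went from 0.282 to 0.396 CPM on day 1 to 3.42 to 4.11 CPM on day 2, of which Cd4 made up nearly all, and Cd3e, Cd3d and Cd8a were at 0. Ribosomal protein genes took 3.47% and 3.63% of the counts on day 1 and 2.57% in each library on day 2, and the part of this shift in the results below was not tested. Among the libraries of the other arms, replicate 2 of untreated Trex1 FL/FL cells on day 1 stood apart. Its Spearman correlation with the 7 other day 1 libraries was 0.989 to 0.991, against 0.993 to 0.996 among those 7. The numbers of genes that differed from untreated Trex1 FL/FL cells are therefore also given without it.

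Trex1 itself (ENSMUSG00000049734.9, chr9:108887001-108888802 of GRCm39, minus strand) had 0 estimated counts in both day 1 libraries of 4-OHT-treated Trex1 FL/FL cells, which allows up to 3 counts per library. On day 2 it had 14 and 9 counts, or 0.347 and 0.250 CPM. Measured against this floor, it was at least 4.85-fold higher on day 2. 4-OHT-treated Trex1 WT/FL cells had 15.0 and 12.2 CPM on day 1 and 57.6 and 56.9 CPM on day 2. Untreated Trex1 FL/FL cells had 31.6 CPM in each day 1 library and 120 and 102 CPM on day 2, and untreated Trex1 WT/FL cells had 28.6 to 32.0 and 114 to 124 CPM. Transcripts of Trex1 rose in all 3 control arms from day 1 to day 2, by log2 fold changes of 2.08, 1.81 and 1.97, and the libraries of 4-OHT-treated Trex1 FL/FL cells were below all of them on both days. The annotation places Trex1 inside Atrip, on the same strand and ending at the same base, and a count of a few reads could be split between them by the quantification.

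Among genes at a mean of 2 CPM or more whose day step was lower than in 4-OHT-treated Trex1 WT/FL cells, the gene next to Trex1 differed most. Shisa5, an IFN-inducible gene of the endoplasmic reticulum with a role in p53-dependent apoptosis, lies on the plus strand at chr9:108867633-108887029 and overlaps the annotated end of Trex1 by 29 bases. Its level was 94.6 and 99.4 CPM on day 1 and 27.5 and 25.2 CPM on day 2, a log2 fold change of −1.88 ± 0.09 (SE, n = 2 against 2, edgeR quasi-likelihood adjusted p = 3.74e-15). In 4-OHT-treated Trex1 WT/FL cells Shisa5 went from 171 and 165 CPM to 226 and 208 CPM, and in untreated cells from 195 to 235 CPM to 358 to 406 CPM. The libraries of 4-OHT-treated Trex1 FL/FL cells were below all control libraries on both days, and the direction was opposite to the other arms. The difference of day steps from 4-OHT-treated Trex1 WT/FL cells was −2.25 (edgeR adjusted p = 1.61e-11), and that from untreated Trex1 FL/FL cells was −2.65 (adjusted p = 3.73e-13), or −2.53 without the untreated day 1 library that stood apart. Whether the libraries keep the strand is not stated, and reads over the shared bases cannot be assigned to either gene. Within 100 kb of Trex1, 7 genes were tested. Atrip, whose product partners the checkpoint kinase ATR, went from 13.6 and 14.3 CPM to 10.5 and 12.2 CPM, a log2 fold change of −0.30 (adjusted p = 0.00981), and its day step did not pass the test of a difference from 4-OHT-treated Trex1 WT/FL cells (adjusted p = 0.196). Pfkfb4, on the far side of Shisa5, rose from 20.0 and 20.5 CPM to 32.2 and 34.0 CPM, by 0.71 against 1.05 in 4-OHT-treated Trex1 WT/FL cells (adjusted p of the difference 0.059). Against the 1.16 of untreated Trex1 FL/FL cells its difference of −0.45 passed the test (adjusted p = 0.00511). Col7a1, Ccdc51 and Tma7 did not pass the test in the day step, with log2 fold changes of −0.22, −0.44 and −0.05.

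**Figure D1:**
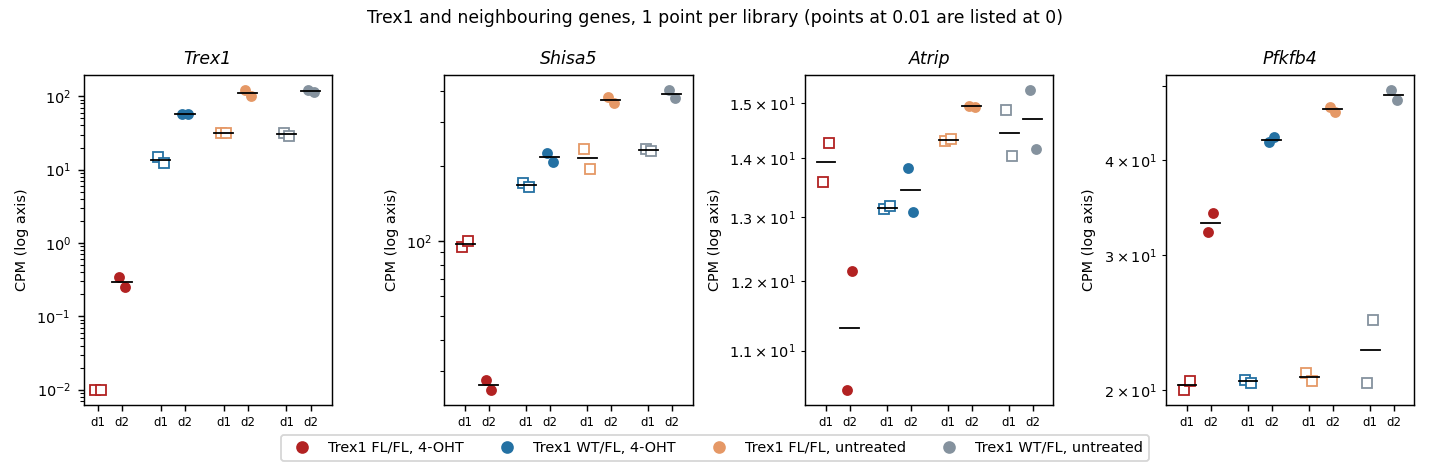
Levels of Trex1 and 3 neighbouring genes in every library of days 1 and 2, in CPM on a log axis, with open squares for day 1, filled circles for day 2 and a line at the mean of 2 libraries. In 4-OHT-treated Trex1 FL/FL cells Trex1 is listed at 0 on day 1 (drawn at 0.01), and Shisa5 fell there from 94.6 and 99.4 CPM to 27.5 and 25.2 CPM while its control libraries were higher on day 2.

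Across the genome, the day step of 4-OHT-treated Trex1 FL/FL cells was broad. At an adjusted p below 0.01, 3310 genes rose (21.7% of those tested) and 2960 fell (19.4%). With an absolute log2 fold change above 1.5 as well, 667 genes were called higher on day 2 (4.37%) and 359 lower (2.35%), and the median over all genes was 0.00. In 666 of the 667 and in all 359, the libraries of the 2 days did not overlap. These genes were called from the same libraries, so this is no separate support for the calls. The other arms also changed between these days, with 507 genes higher and 315 lower in 4-OHT-treated Trex1 WT/FL cells, 510 and 276 in untreated Trex1 FL/FL cells and 511 and 282 in untreated Trex1 WT/FL cells. Of the 667 genes called higher, 425, 377 and 392 were called higher in these arms, and their median log2 fold change was 2.53, against 1.92, 1.75 and 1.84. The 359 genes called lower had a median of −2.12, against −1.87, −1.76 and −1.80, and 230, 198 and 211 of them were called lower there. Both sets were picked for a large step in 4-OHT-treated Trex1 FL/FL cells, which by itself favours a larger median there. The differences between arms were tested on their own, as given further on.

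The panel of Isg15, Ifit3, Oas1a, Irf7, Usp18, Oasl1, Ifi44 and Cxcl10 rose in full. Isg15, a ubiquitin-like modifier, had 10.4 and 9.96 CPM on day 1 and then 518 and 507 CPM, and its log2 fold change was 5.66 ± 0.24 (SE, n = 2 against 2, adjusted p = 1.19e-12 from edgeR). Ifit3, which binds in a complex on viral RNA, rose from 10.8 and 6.77 CPM to 1171 and 1202 CPM, by 7.08. These libraries did not overlap between the days, and on day 1 both genes lay close to the control arms. On day 1 Isg15 had 6.08 to 11.6 CPM and Ifit3 5.93 to 9.66 CPM in the 6 control libraries, and on day 2 they had 117 to 181 CPM and 235 to 355 CPM. Irf7, the transcription factor that amplifies IFN production, rose by 5.43, from 24.4 and 30.7 CPM to 1127 and 1246 CPM. Usp18, the protease that removes ISG15 and dampens the IFN receptor, rose by 4.43. Oas1a and Oasl1 belong to the oligoadenylate synthetase family, of which OAS1 makes the activator of RNase L, and rose by 2.74 and 5.56. Ifi44 rose by 7.35, from 1.65 and 1.09 CPM to 236 and 211 CPM. Cxcl10, the chemokine that draws CXCR3+ T cells, rose from 22.3 and 14.5 CPM to 777 and 835 CPM, by 5.45 ± 0.30 (adjusted p = 5.40e-11).

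**Figure D2:**
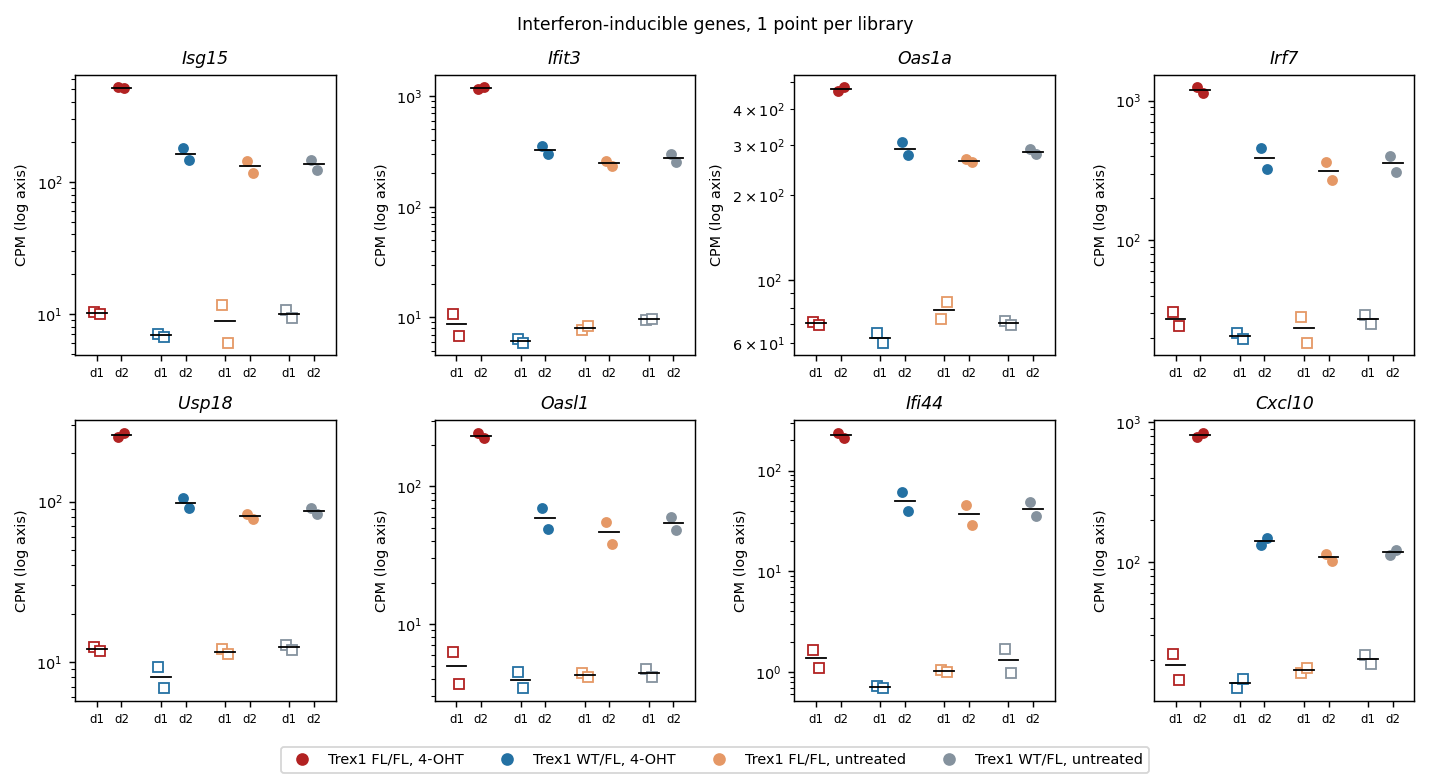
Levels of 8 ISGs in every library of days 1 and 2, in CPM on a log axis, with open squares for day 1, filled circles for day 2 and a line at the mean of 2 libraries. Day 1 libraries of the 4 arms lie close together, all arms are higher on day 2, and on day 2 both libraries of 4-OHT-treated Trex1 FL/FL cells are above every control library, as for Isg15 with 518 and 507 CPM against at most 181 CPM.

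The upstream sequences of these genes are shown because many ISGs carry a short response element there. The 250 bases before the annotated start of the canonical transcript (GRCm39 sequence, GENCODE vM39) are written 5′ to 3′ on the strand of the gene, with matches to GAAANNGAA, a short form of the IFN-stimulated response element, on either strand in capitals. They lie at chr19:34560649-34560898, plus strand, for Ifit3, at chr4:156285304-156285553, minus strand, for Isg15, at chr6:121222607-121222856, plus strand, for Usp18, and at chr5:92496749-92496998, minus strand, for Cxcl10.
Ifit3: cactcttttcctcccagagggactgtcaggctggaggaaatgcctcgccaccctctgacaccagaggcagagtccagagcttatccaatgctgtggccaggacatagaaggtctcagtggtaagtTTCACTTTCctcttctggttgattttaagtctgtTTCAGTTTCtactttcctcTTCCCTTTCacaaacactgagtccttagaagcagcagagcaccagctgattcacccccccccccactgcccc
Isg15: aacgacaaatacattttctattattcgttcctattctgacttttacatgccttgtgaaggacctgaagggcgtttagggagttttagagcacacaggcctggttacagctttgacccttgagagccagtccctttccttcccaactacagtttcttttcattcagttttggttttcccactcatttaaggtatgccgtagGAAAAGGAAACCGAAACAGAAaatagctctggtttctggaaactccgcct
Usp18: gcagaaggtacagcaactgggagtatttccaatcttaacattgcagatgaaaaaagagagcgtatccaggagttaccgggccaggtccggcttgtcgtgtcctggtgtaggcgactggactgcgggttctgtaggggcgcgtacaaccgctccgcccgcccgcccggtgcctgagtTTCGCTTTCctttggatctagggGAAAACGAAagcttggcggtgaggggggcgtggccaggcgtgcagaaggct
Cxcl10: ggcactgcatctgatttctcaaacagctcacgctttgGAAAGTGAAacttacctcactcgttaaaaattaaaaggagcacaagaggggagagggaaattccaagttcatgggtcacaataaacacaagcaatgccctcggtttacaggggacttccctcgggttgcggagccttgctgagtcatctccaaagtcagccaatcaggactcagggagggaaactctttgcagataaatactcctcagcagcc
Ifit3 held 3 matches, which start 125, 91 and 72 bases before the transcript start. Isg15 held 3 overlapping matches from 50 bases before the start, Usp18 held 2 and Cxcl10 held 1, at 213 bases. Over a window that also takes in the first 50 transcribed bases, 18 of the 39 promoters of the antiviral list (46.2%) held a match, against 1910 of 21751 protein-coding promoters (8.78%). A match is a run of letters and not a measured binding site. Ifi44, Oasl1 and Irf7 held none in this window.

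Antiviral effectors rose as a group. Of 40 genes listed 39 passed the filter on low counts, and counts for this and other lists are over the members that passed it. Apart from the IFN genes themselves, at most 4 members of a list did not pass it. Over all genes tested, 21.7% rose and 19.4% fell. Of the 39 antiviral genes, 39 rose and 37 were called, with a median log2 fold change of 3.29 beside 0.00 over all genes. Ifit1bl1 and Ifi44 rose most, by 7.29 and 7.35. The conjugation system of ISG15 (6 genes, all higher) had a median of 3.52, against 2.62, 2.19 and 2.38 in the other arms. The GTPases of the GBP and IRG families attack the membranes of intracellular pathogens. They had the highest median of the lists with more than 1 gene tested, 5.25, or 4.87 with Gbp2b at its bound. Of these GTPase genes 16 of 16 were called higher, and the other arms had medians of 3.96, 3.20 and 3.44. Iigp1 rose from 1.29 and 0.806 CPM to 306 and 294 CPM, by 8.16. Gbp2b had 0 counts on day 1 and 20 and 5 counts on day 2, at least 5.15-fold higher, and its adjusted p of 0.00244 did not hold below 0.01 without either day 1 library or without the first day 2 library. Tgtp1 and Tgtp2, Ifit3 and Ifit3b and several GBP genes are near copies of each other, so their split of reads is uncertain.

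Of 14 genes for IFN signalling, 13 rose and 1 fell, with a median of 1.14 against 0.87, 0.97 and 0.89 in the other arms. Stat2 rose from 56.2 and 51.0 CPM to 787 and 774 CPM, by 3.86. Socs3, a feedback inhibitor of cytokine receptors, was lower by 0.80 (adjusted p = 0.00244, over 0.01 without any one of the 4 libraries). Of the 19 genes for type I and III IFN themselves, Ifnb1 was tested. It had 0 counts in both day 1 libraries and 18 and 12 counts on day 2, at least 6.33-fold higher than the floor of 3 counts per library, with 6 and 3 counts on day 2 in 4-OHT-treated Trex1 WT/FL cells and 0 to 3 counts in the untreated libraries. The adjusted p of its day step, 0.00348, did not hold below 0.01 without either day 1 library or without the first day 2 library, and the difference from the other arms did not pass the test (adjusted p of 1 and 0.411).

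Of 19 genes for nucleic acid sensors and the cGAS-STING pathway, 16 rose, 0 fell and 3 did not pass. Their median was 2.01, against 1.45, 1.21 and 1.30 in the other arms. Ifi204 and Ifi205, members of the IFI200 family of DNA-binding proteins, rose by 4.34 and 5.66. Ifih1, which encodes the RNA sensor MDA5, rose from 31.7 and 27.3 CPM to 300 and 290 CPM, by 3.32. Cgas was at 32.6 and 28.2 CPM and then at 36.8 and 33.0 CPM (log2 fold change 0.20, adjusted p = 0.109). Irf3 was at 35.1 and 34.0 CPM and then at 35.2 and 32.9 CPM (−0.02, adjusted p = 0.896). Sting1 rose by 1.00, from 28.3 and 26.1 CPM to 51.6 and 57.1 CPM, against 0.84, 0.75 and 0.91 in the other arms. Its differences from 4-OHT-treated Trex1 WT/FL and untreated Trex1 FL/FL cells did not pass the test (edgeR adjusted p of 0.697 and 0.298). Among 8 genes whose mutation causes Aicardi-Goutières syndrome, 4 rose, 2 fell and 2 did not pass. Lsm11, which works in histone mRNA processing, fell by 0.92, and Rnaseh2b fell by 0.48, with an adjusted p over 0.01 without the second day 2 library. Besides Trex1, Ifih1 rose most in this list.

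Antigen presentation by MHC class I rose with the ISGs. All 17 genes rose, 13 were called, and the median was 1.76, against 1.28, 1.18 and 1.02 in the other arms. Tap1, a subunit of the peptide transporter, rose from 55.8 and 57.7 CPM to 415 and 410 CPM, by 2.86, and Nlrc5, the transactivator of the class I genes, rose by 2.61. In the class II pathway 3 of 12 genes rose, beside 21.7% of all genes tested, and 9 did not pass. The median of −0.15, against 0.15, 0.12 and 0.11 in the other arms, turned to 0.11 without day 1 replicate 1. Ctss, the protease that trims the invariant chain, rose by 1.17.

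**Figure D3:**
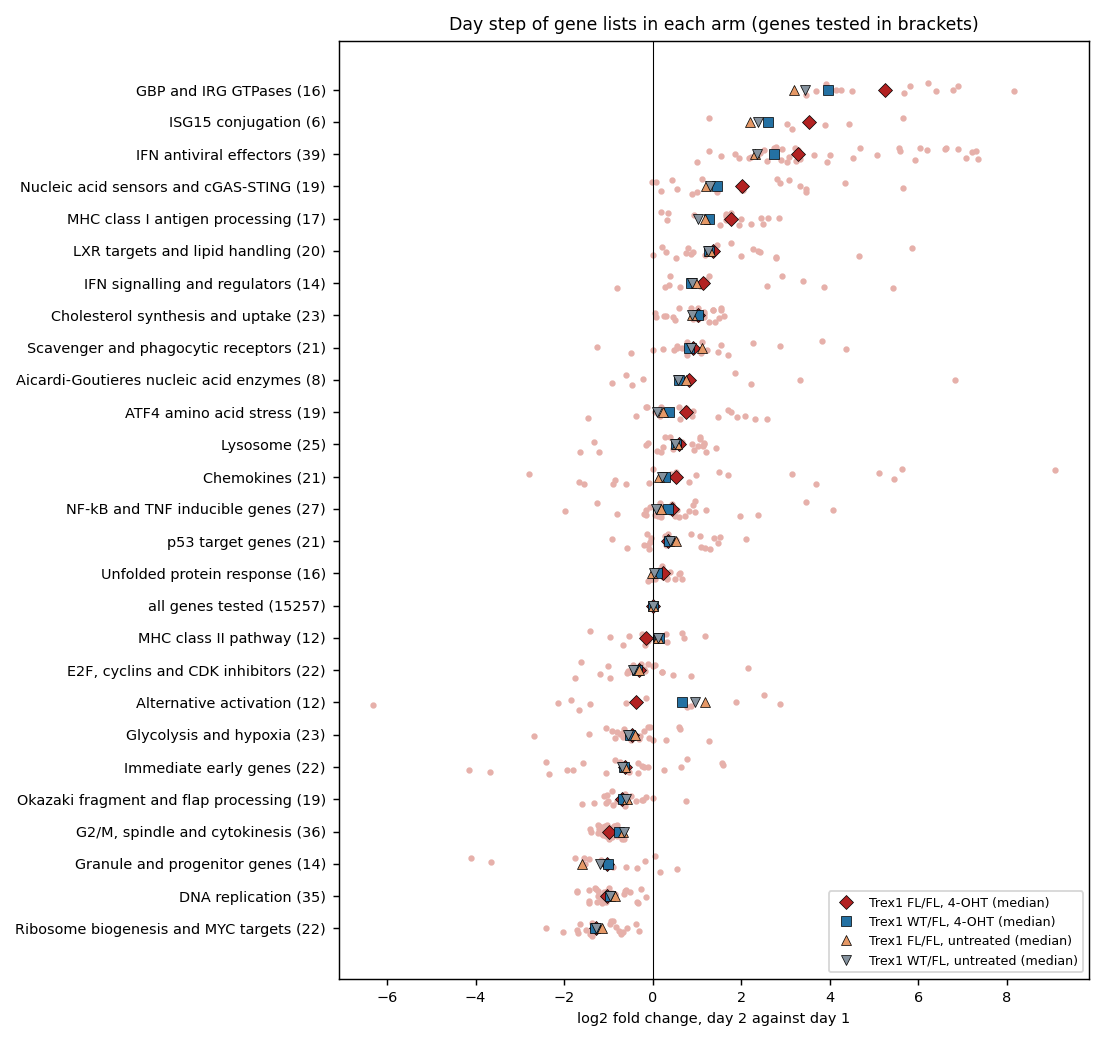
Log2 fold changes from day 1 to day 2 of the genes of 26 lists and all genes tested. Pale points are single genes of the 4-OHT-treated Trex1 FL/FL arm, and larger marks are list medians in the 4 arms. The GBP and IRG, ISG15 and antiviral lists stand farthest right, with medians of 5.25, 3.52 and 3.29 for the 4-OHT-treated Trex1 FL/FL arm, and the lists for DNA replication and ribosome biogenesis stand at −1.04 and −1.29 with the control arms close by.

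The test of the day step against that of 4-OHT-treated Trex1 WT/FL cells asks whether it differs between the genotypes under 4-OHT. It does not separate loss of the second allele from other differences between the genotypes. At an adjusted p below 0.05, 640 genes had a higher day step in 4-OHT-treated Trex1 FL/FL cells (4.19% of those tested) and 170 a lower one (1.11%). Against untreated Trex1 FL/FL cells, which share the 4 libraries of this arm with the first comparison, 1010 genes were higher (6.62%) and 385 lower (2.52%). Without replicate 2 of the untreated day 1 cells these were 785 and 227, without replicate 1 of the same group they were 1221 and 1166, and with upper-quartile factors they were 886 and 546. The count of 170 genes with a lower step was smaller without any one of the 8 libraries compared. Each such fit leaves a group with 1 library, so a smaller count does not show that it rests on a given library. The called genes were picked for a large step in 4-OHT-treated Trex1 FL/FL cells. That step is part of both differences, so this choice favours a further change in the counts that follow. Of the 667 genes called higher on day 2, 244 rose further than in 4-OHT-treated Trex1 WT/FL cells and 6 less far. Of the 359 called lower, 9 fell further than in that arm, and 34 fell further than in untreated Trex1 FL/FL cells, or 16 without the library that stood apart.

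**Figure D4:**
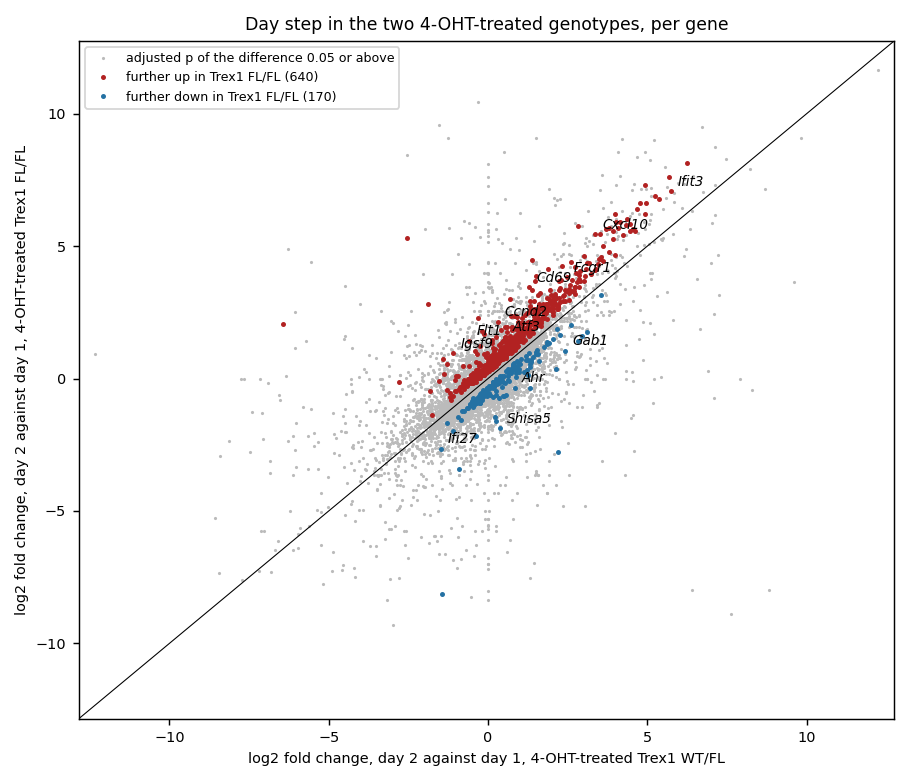
Log2 fold change from day 1 to day 2 of each of 15257 genes in 4-OHT-treated Trex1 FL/FL cells (vertical) against 4-OHT-treated Trex1 WT/FL cells (horizontal), with the line of equality. The 640 genes with a higher step in Trex1 FL/FL cells are red and the 170 with a lower one are blue, and Shisa5 lies far below the line at −1.88 against 0.37.

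Among antiviral effectors 27 of 39 rose further than in 4-OHT-treated Trex1 WT/FL cells, and 37 of 39 (36 without the library that stood apart) further than in untreated Trex1 FL/FL cells, with medians of 2.74 and 2.31 in those arms. Cxcl10 rose by 5.45 against 3.37, a difference of 2.09 (adjusted p = 0.00204), from 12.6 and 14.7 CPM to 134 and 148 CPM in that arm. Oas1a differed by 0.53 (adjusted p = 0.000839). These differences held without any one library. The others of the panel that passed the test missed the threshold in some fits without a library. Such a fit leaves a group with 1 library. Ifit3 differed by 1.35 (adjusted p = 0.00900), and by 1.05 and 1.29 with adjusted p of 0.0572 and 0.0501 without day 1 replicate 2 of Trex1 FL/FL or day 1 replicate 1 of Trex1 WT/FL cells. Usp18 differed by 0.83, and by 0.59 (adjusted p = 0.0751) without day 1 replicate 1 of Trex1 WT/FL cells. Isg15 differed by 1.09 (adjusted p = 0.0487) and missed 0.05 without 7 of the 8 libraries, with differences of 0.95 to 1.13. Irf7 differed by 1.20 and missed it without 5 of them, with differences of 0.98 to 1.27. Ifi44 differed by 1.21 and did not pass (adjusted p = 0.496). For the GBP and IRG genes, 12 of 16 rose further than in 4-OHT-treated Trex1 WT/FL cells, and for MHC class I 11 of 17. Tap1 differed by 0.91 (adjusted p = 5.02e-06) and Ifih1 by 0.87 (adjusted p = 1.71e-06), and both held without any one library. With the untreated arms of both genotypes subtracted too, Oas1a differed by 0.79 (edgeR adjusted p = 0.00141), Tap1 by 0.97 (0.000539) and Ifih1 by 1.03 (9.70e-05). The others of the panel had differences of 0.85 to 1.94 there and did not pass (adjusted p of 0.0733 to 0.82).

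Chemokines changed in both directions. Of 21 chemokines, 12 rose and 4 fell, with a median of 0.53 against 0.28, 0.13 and 0.21 in the other arms. Ccl8 had 1 and 0 counts on day 1 and 232 and 304 counts on day 2, a ratio of 684 with a 95% counting interval of 122 to 27100, and 143 and 100 counts on day 2 in 4-OHT-treated Trex1 WT/FL cells. Cxcl3 and Cxcl14 fell by 2.79 and 1.56. Ccl5 rose from 1.52 and 1.47 CPM to 19.1 and 19.3 CPM, by 3.68 against 1.48 in 4-OHT-treated Trex1 WT/FL cells. Some monocyte-recruiting chemokines, singled out after their values were seen, differed without rising. Ccl2 had 179 and 212 CPM on day 1 and then 176 and 193 CPM, a log2 fold change of −0.08, against −1.55 in 4-OHT-treated Trex1 WT/FL, −1.78 in untreated Trex1 FL/FL and −2.05 in untreated Trex1 WT/FL cells, a difference of 1.46 from the first of these (adjusted p = 0.00125). Ccl7 likewise stood at 0.53 (adjusted p = 0.085) against −1.30 (difference 1.83, adjusted p = 0.0038). Of 27 genes induced by NF-κB and TNF, 14 rose, 2 fell and 11 did not pass, with a median of 0.44 against 0.34, 0.19 and 0.07 in the other arms.

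Cd69, a surface receptor of early activation, showed one of the largest differences between the arms. It rose from 4.19 and 3.14 CPM to 36.3 and 44.3 CPM, by 3.46 ± 0.23, against 1.29 in 4-OHT-treated Trex1 WT/FL, 1.07 in untreated Trex1 FL/FL and 1.03 in untreated Trex1 WT/FL cells. On day 2 the 6 control libraries held 8.43 to 11.5 CPM. The difference from 4-OHT-treated Trex1 WT/FL cells was 2.16 (adjusted p = 5.76e-05). Ccrl2, an atypical chemoattractant receptor, rose by 4.08. Tnf fell by 0.81, from 76.7 and 73.9 CPM to 42.7 and 43.2 CPM, and Ptgs2 was lower by 1.25 (adjusted p = 0.0026, over 0.01 without 3 of the 4 libraries). The day step of Tnf was 0.57 higher than in untreated Trex1 FL/FL cells, where it fell further (edgeR adjusted p = 0.023). This difference was also 0.57 without the untreated library that stood apart. From 4-OHT-treated Trex1 WT/FL cells Tnf did not differ by the test. A κB-like run, GGANTTTCC, was found before 5 of the 27 genes (18.5%), against 292 of 21751 promoters (1.34%). The run was absent before Ccrl2, Tnf and Ptgs2. It is shown for Cd69 as the member of this list that differed most between genotypes, at chr6:129252400-129252649, minus strand, with the match 153 bases before the start in capitals.
Cd69: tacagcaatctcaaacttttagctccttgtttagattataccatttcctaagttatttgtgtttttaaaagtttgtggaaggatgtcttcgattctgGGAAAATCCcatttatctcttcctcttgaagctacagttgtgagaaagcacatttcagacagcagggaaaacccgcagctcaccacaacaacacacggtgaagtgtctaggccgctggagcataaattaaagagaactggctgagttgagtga

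Immediate early genes, the first targets of growth factor signals, had a median of −0.62 against −0.65, −0.62 and −0.69 in the other arms. Of 22 genes 11 were lower, 4 were higher and 7 did not pass. The AP-1 subunits Fosl1 and Fosb fell by 4.15 and 3.67. Atf3, a stress-induced repressor, rose from 74.4 and 76.9 CPM to 227 and 226 CPM, by 1.58 against 0.56 in 4-OHT-treated Trex1 WT/FL cells, a difference of 1.02 (adjusted p = 1.46e-07). Btg2, an antiproliferative gene, rose by 1.56 and by 1.65 in that arm.

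Genes of proliferation fell in this arm and in the controls. Of 36 genes for G2/M, spindle and cytokinesis, 36 fell, with a median of −0.99 against −0.77 in 4-OHT-treated Trex1 WT/FL cells, −0.68 in untreated Trex1 FL/FL cells and −0.65 in untreated Trex1 WT/FL cells. Mki67, the proliferation marker, fell from 708 and 654 CPM to 273 and 245 CPM, by 1.40 on the log2 scale against 1.04 in 4-OHT-treated Trex1 WT/FL cells, a difference that did not pass the test (adjusted p = 0.104). Of the 36 genes, 2 fell further than in that arm and 8 further than in untreated Trex1 FL/FL cells, or 6 without the library that stood apart. In bulk RNA, fewer dividing cells and less RNA of these genes per cell cannot be told apart. Of 35 DNA replication genes 32 fell, with a median of −1.04 against −0.97, −0.86 and −0.97, and Rrm2, the ribonucleotide reductase subunit of S phase, and Dut, the dUTPase, fell by 1.71 each. A cell cycle homology run, TTTGAA, was present in 18 of 36 G2/M promoters (50%) against 3716 of 21751 (17.1%), and the E2F-like run TTTCGCGC in 4 of 35 replication promoters (11.4%) against 77 (0.354%). Mki67 held no match to the first, and Rrm2 and Dut held none to the second.

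The enzymes that process Okazaki fragments, whose flaps EXO1, FEN1 and DNA2 remove, followed the replication genes. Of 19 genes in this list, which also held the repair factors Mus81 and Xpa, 14 fell, 1 rose and 4 did not pass. The median was −0.69 against −0.67, −0.57 and −0.61 in the other arms. Exo1 fell from 22.2 and 20.4 CPM to 6.96 and 7.13 CPM, by 1.60, Dna2 by 1.33 and Fen1 by 0.93. None of these 3 passed the test of a difference from 4-OHT-treated Trex1 WT/FL cells, with differences of −0.17, −0.16 and 0.01 (adjusted p of 0.901, 0.83 and 1). Xpa, a nucleotide excision repair factor, was the gene of this list that rose, by 0.76.

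Cyclins and CDK inhibitors showed a gene that ran against its list. The 22 genes had a median of −0.32 against −0.35, −0.32 and −0.44 in the other arms, with 10 lower, 4 higher and 8 that did not pass. Ccnd2, cyclin D2, rose from 10.2 and 9.88 CPM to 42.8 and 46.7 CPM, by 2.15 ± 0.17. In the 3 control arms it changed by 0.30, 0.27 and 0.17, with 12.4 to 17.5 CPM in their day 2 libraries, all below the libraries of 4-OHT-treated Trex1 FL/FL cells. The difference from 4-OHT-treated Trex1 WT/FL cells was 1.85 (adjusted p = 1.03e-05). Cdkn1a, the CDK inhibitor p21, rose from 262 and 294 CPM to 491 and 518 CPM, by 0.86 against 0.38 (difference 0.48, adjusted p = 0.000275). With the untreated arms of both genotypes subtracted too, the difference for Cdkn1a was 0.34 and did not pass (edgeR adjusted p = 0.153). Ccne2 and E2f7 fell by 1.77 and 1.62.

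Of 21 p53 target genes, 12 rose, 2 fell and 7 did not pass, with a median of 0.34 against 0.38, 0.53 and 0.39 in the other arms. Gdf15, a stress cytokine, rose by 2.11, and Plk2, a polo-like kinase, rose by 1.52 against 0.53 in 4-OHT-treated Trex1 WT/FL cells (difference 0.99, adjusted p = 0.000356). The ATF4 list, which serves amino acid supply and the integrated stress response, had a median of 0.74 against 0.37, 0.23 and 0.10 in the other arms. In it 12 of 19 genes rose, 1 fell, and 8 rose further than in 4-OHT-treated Trex1 WT/FL cells. Ddit3, which encodes CHOP, rose from 7.25 and 8.10 CPM to 44.5 and 48.1 CPM, by 2.59 against 1.56 (difference 1.03, adjusted p = 0.000336), and the pseudokinase gene Trib3 rose by 2.30. Slc7a11, the cystine transporter, fell by 1.47. Of 16 genes of the unfolded protein response, 8 rose and 8 did not pass. Their median was 0.23, against 0.09, −0.02 and 0.02 in the other arms. Hspa5, the chaperone BiP, rose by 0.67 against 0.35, a difference of 0.32 that was 0.27 (adjusted p = 0.0635) without day 1 replicate 1 of this arm.

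Of 23 genes for cholesterol synthesis and uptake 20 rose and 3 did not pass, with a median of 1.02 against 1.03 in 4-OHT-treated Trex1 WT/FL cells, and 0 of them differed from either of the 2 arms tested. Lss, the lanosterol synthase, rose from 30.5 and 30.8 CPM to 93.7 and 94.4 CPM, by 1.62. A sterol-response run, TCACNCCAC, was present in 1 of 23 promoters (4.35%) against 291 of 21751 (1.34%). Of 20 LXR targets and lipid handling genes 16 rose, with a median of 1.36, or 1.22 with the member that was at 0 on day 1 at its bound. The other arms had medians of 1.27, 1.28 and 1.26 for this list. Scd1, a fatty acid desaturase, rose by 5.86 and Apoe by 2.79. Of the 20 genes 3 rose further than in 4-OHT-treated Trex1 WT/FL cells, and these were named after their values were seen. They were Abcg1, a cholesterol exporter (difference 0.59), Nr1h3, which encodes LXRα (0.52), and Plin2, a lipid droplet protein (0.63). Ribosome biogenesis and MYC targets fell in full, 22 of 22, with a median of −1.29 against −1.30, and Myc fell from 68.3 and 60.4 CPM to 11.9 and 12.4 CPM, by 2.40 on the log2 scale. Glycolysis and hypoxia genes had a median of −0.47 against −0.51, −0.40 and −0.56 in the other arms, with 14 of 23 lower and 4 higher. Of the 23 genes 3 had a higher day step than in 4-OHT-treated Trex1 WT/FL cells. Egln3, the oxygen-sensing prolyl hydroxylase, fell by 2.69 and the glucose transporter Slc2a1 by 1.44, and Pfkp, a phosphofructokinase, rose by 0.62 against 0.16 (difference 0.47, adjusted p = 0.000442).

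Genes of macrophage function rose for the most part. Of 25 lysosomal genes 18 rose and 3 fell, with a median of 0.59 against 0.52, 0.54 and 0.49 in the other arms. Gla, a lysosomal galactosidase, rose by 1.42, and Ctsk and Acp5, markers of the osteoclast, fell by 1.65 and 1.33. Of 21 scavenger and phagocytic receptors 16 rose and 2 fell, with a median of 0.90 against 0.83, 1.12 and 0.86 in the other arms. Fcgr1, the high-affinity Fc receptor, rose from 50.4 and 54.3 CPM to 720 and 775 CPM, by 3.83 against 2.47 in 4-OHT-treated Trex1 WT/FL cells (difference 1.37, adjusted p = 1.18e-05). Fcgr4 rose by 4.37, and Msr1 and Itgax fell by 0.48 and 1.25. Csf1r, the receptor for M-CSF, rose by 0.75, and Adgre1, which encodes F4/80, rose from 966 and 977 CPM to 3160 and 3260 CPM, by 1.72 against 1.66. In the alternative activation list 3 of 12 rose, 2 fell and 7 did not pass, whereas 21.7% of all genes tested rose and 19.4% fell. The median of −0.38, against 0.65, 1.18 and 0.95 in the other arms, was 0.21 without day 1 replicate 1. Of the 12 genes, 0 differed from 4-OHT-treated Trex1 WT/FL cells by the test. Against untreated Trex1 FL/FL cells, 1 had a lower day step and 0 a higher one. Mrc1, the mannose receptor, rose by 2.88, and Arg1 fell from 0.980 and 1.53 CPM to 0.0248 and 0 CPM. In the list of granule and progenitor genes 2 of 14 fell, beside 19.4% of all genes tested, and 12 did not pass. Cd34, a progenitor marker, fell by 3.65.

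The largest rises among protein-coding genes at 2 CPM or more were Ccl8, Ifi214, Fbn1, Iigp1, Ifi213, Ms4a4c, Ifi208, Ifi206, Ifi44 and Ifit1bl1, with log2 fold changes of 7.29 to 9.10. Of these, Ccl8, Ifi214 and Fbn1 had 1 count over both day 1 libraries. Fbn1, which encodes the matrix protein fibrillin 1, reached 5.27 and 4.50 CPM on day 2, a ratio of 479 with a counting interval of 85.4 to 19000. Ifi213, Ifi214, Ifi206 and Ifi208 belong to the IFI200 gene cluster. Of the 10 rises, Iigp1, Ms4a4c and Ifit1bl1 went further than in 4-OHT-treated Trex1 WT/FL cells, by 1.90, 1.92 and 2.36. The others did not pass the test of that difference, as for Ifi44 (1.21, edgeR adjusted p = 0.496). The largest falls were Id1, Id3, Epha2, Fosl1, Smad6, Scin, Acsbg1, Notch4, Fosb and Bok. Id1, a target of BMP signalling that holds back differentiation, fell from 43.5 and 38.8 CPM to 0.569 and 0.388 CPM, by 6.40 on the log2 scale, Id3 by 4.85, and Smad6, a feedback inhibitor of the same pathway, by 3.96. None of the 10 falls differed from 4-OHT-treated Trex1 WT/FL cells by the test, with adjusted p of 0.221 to 0.967.

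**Figure D5:**
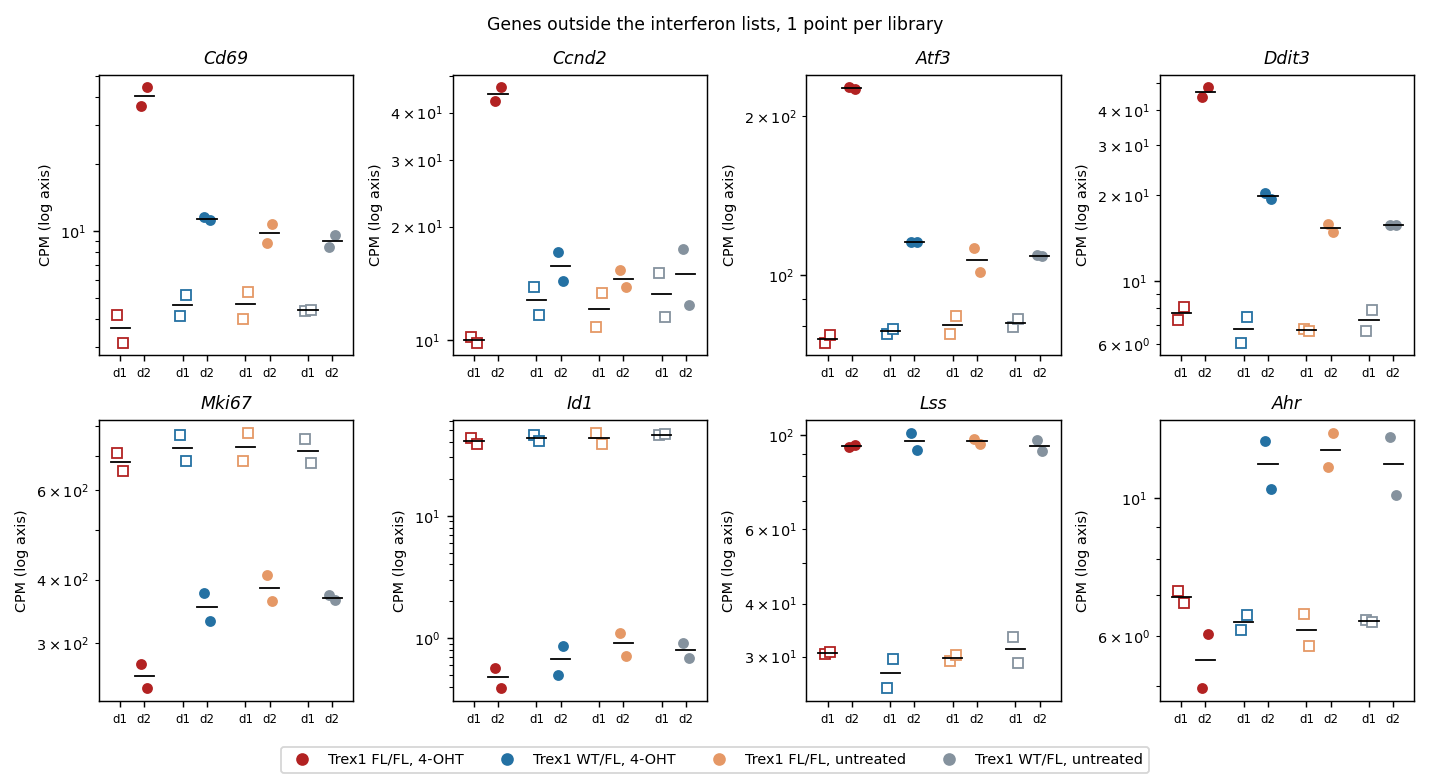
Levels of 8 genes outside the IFN lists in every library of days 1 and 2, in CPM on a log axis, with open squares for day 1, filled circles for day 2 and a line at the mean of 2 libraries. Cd69, Ccnd2, Atf3 and Ddit3 are highest in the day 2 libraries of 4-OHT-treated Trex1 FL/FL cells, as for Ccnd2 with 42.8 and 46.7 CPM against at most 17.5 CPM, and Mki67, Id1 and Lss take the same direction in all arms.

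A smaller set of genes rose in the control arms and rose less or not at all in 4-OHT-treated Trex1 FL/FL cells. Gab1, an adaptor of receptor tyrosine kinases, went from 3.29 and 3.39 CPM to 6.46 and 7.44 CPM, by 1.05 against 2.42, 2.29 and 2.36 in the control arms (difference from 4-OHT-treated Trex1 WT/FL cells −1.37, adjusted p = 7.61e-07). On day 2 the control libraries held 15.8 to 20.7 CPM. Ahr, the aryl hydrocarbon receptor, stood at 7.11 and 6.79 CPM and then at 4.95 and 6.05 CPM (−0.34, adjusted p = 0.0523), against a rise of 0.84, 0.96 and 0.84 (difference −1.18, adjusted p = 0.000286). Mturn stood at 0.13 against 1.27 (difference −1.14). Ifi27 fell by 2.65, against 1.48 in 4-OHT-treated Trex1 WT/FL cells (difference −1.17, adjusted p = 0.0016), unlike the ISGs above. In the opposite direction, Flt1, a receptor for VEGF, rose by 1.43 against −0.59, −0.55 and −0.99 in the control arms (difference 2.02, adjusted p = 0.00438), and Igsf9 rose by 0.96 against −1.08, −0.91 and −0.72. The adjusted p of the rise of Flt1 was 0.0144 without day 1 replicate 2 (1.18), and that of Igsf9 was up to 0.0128 without 3 of the 4 libraries.

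Some genes had opposite signs in treated and untreated cells. Mex3b, an RNA-binding protein, fell from 5.48 and 5.16 CPM to 1.46 and 2.05 CPM, by 1.60 on the log2 scale, and 4-OHT-treated Trex1 WT/FL cells had a fall of 1.12, whereas it stood at 0.92 and 0.74 in the untreated arms. The difference from untreated Trex1 FL/FL cells was −2.52 (adjusted p = 1.43e-07, and −2.41 without the library that stood apart) and that from 4-OHT-treated Trex1 WT/FL cells was −0.49 (adjusted p = 0.437). N4bp3 had the same order, with −0.998 and −0.73 in the treated and 0.69 and 0.59 in the untreated arms.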

How the data were processed

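RNA of BMDMs from 32 samples, 16 groups of genotype, treatment and day with 2 samples each, was sequenced. Per the submitters' notes and the methods, the authors split the pool with JE, ran FastQC 11.9 as a quality check, and obtained transcript abundances on GRCm39 from Salmon, which tximport summed to genes. The table deposited by the authors holds estimated counts, unnormalized and already whole numbers. The authors ran DESeq2 1.32 themselves, and none of its output was used. The annotation release is not given in the sources used here. Of 54281 gene identifiers, 51048 were matched to GENCODE vM39, and the others held 0.32% of the counts. All columns matched a sample's labels.

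Genes were kept by filterByExpr at a minimum count of 10 (15257 genes). All 32 libraries were fitted in edgeR 4.0.16 (R 4.3.3, limma 3.58.1) with TMM factors, robust quasi-likelihood dispersion and a mean per group, which left 16 residual degrees of freedom at a common biological coefficient of variation of 0.0912. Adjusted p-values are Benjamini-Hochberg values over all genes tested, and every adjusted p in the report comes from edgeR. Those given without a library come from a refit, with filter, factors and dispersion estimated again, and all others from the fit of 32 libraries. A gene rose or fell at an adjusted p below 0.01, was called with an absolute log2 fold change above 1.5 as well, and differed between arms at an adjusted p below 0.05. Genes at 0 on day 1 were compared with a floor of 3 counts per library, and ratios over 1 to 3 counts have an exact 95% interval. Floors and intervals cover counting error only. The SE of a log2 fold change is its size over the square root of the quasi-likelihood F. Its dispersion draws on all 32 libraries and is moderated across genes, so it is not the spread of the compared libraries alone. The fit was tested on simulated data.

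The genes named were Trex1, the panel of 8 ISGs, Mki67, Cdkn1a, Ifnb1, Cgas, Sting1, Irf3, Exo1, Fen1, Dna2, Csf1r and Adgre1, and in each list the 2 largest rises, the 2 largest falls and any member called against the list's median. To these came the 10 largest rises and falls among called protein-coding genes at a mean of 2 CPM, and the 8 largest differences each way from each of 2 arms. Genes of the Trex1 locus, Ccl2, Ccl7, Abcg1, Nr1h3 and Plin2 were added after their values were seen. The members and lists were chosen with earlier results of these data known. Alternatives were RLE and upper-quartile factors, other filters and thresholds, DESeq2 1.42.0, fewer libraries, and leaving out each library in turn.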

Additional observations from a re-analysis of the deposited data

Results flagged for a closer look

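Of 122 genes tested and named by rule, 45 had a day step in 4-OHT-treated Trex1 FL/FL cells that differed from 4-OHT-treated Trex1 WT/FL cells by the edgeR test of the difference, and 21 more differed from untreated Trex1 FL/FL cells alone. Both comparisons share the 4 libraries of 4-OHT-treated Trex1 FL/FL cells, and part of these genes was named for their difference. Values are differences of log2 fold changes.

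Against 4-OHT-treated Trex1 WT/FL cells, the day step was higher for the antiviral and IFN-related genes Oasl1 by 1.64, Usp18 by 0.83, Isg15 by 1.09, Oas1a by 0.53, Ifit3 by 1.35, Irf7 by 1.20, Ifit1bl1 by 2.36, Stat2 by 0.83, Iigp1 by 1.90, Gbp4 by 2.21 and Ms4a4c by 1.92. Among sensors and antigen presentation genes it was higher for Ifi205 by 1.96, Ifi204 by 0.90, Ifih1 by 0.87, Tap1 by 0.91, Nlrc5 by 0.82 and Ctss by 0.36. Chemokine, surface receptor and Fc receptor genes differed, Cxcl10 by 2.09, Ccl5 by 2.20, Ccrl2 by 1.18, Cd69 by 2.16, Fcgr1 by 1.37 and Fcgr4 by 1.21. Stress, p53 and cell cycle genes differed, Atf3 by 1.02, Ddit3 by 1.03, Trib3 by 1.23, Hspa5 by 0.32, Gdf15 by 0.75, Plk2 by 0.99, Cdkn1a by 0.48 and Ccnd2 by 1.85. Other genes with a higher day step were Pfkp by 0.47, Gla by 0.60, Npc2 by 0.46, Hap1 by 3.11, Igsf9 by 2.04 and Flt1 by 2.02. The difference was below 0 for Shisa5 at −2.25, Gab1 at −1.37, Adgre4 at −1.35, Slc40a1 at −1.32, Ahr at −1.18, Zfp667 at −1.17, Ifi27 at −1.17 and Mturn at −1.14. Of the 45 genes, 20 missed the threshold without some one of the 8 libraries, among them Isg15, Ifit3, Irf7, Usp18, Oasl1, Hap1, Gbp4 and Ccl5. Gdf15 was at 0.49 without day 1 replicate 2 of Trex1 WT/FL cells, and Gbp4 at 1.44 and 3.86 without day 1 replicates 2 and 1 of Trex1 FL/FL cells. Without that replicate 1 Ifi205 was at 3.09.

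Against untreated Trex1 FL/FL cells alone, the day step was higher for Ifi214 by 4.28, Ifi213 by 2.31, Ifi206 by 2.18, Apol9a by 3.53, Ifit3b by 2.82, Slfn4 by 2.77, Fbn1 by 4.88, Tnf by 0.57, Pfkfb3 by 0.71 and Msr1 by 0.36, and the difference was below 0 for Mki67 at −0.48, Rrm2 at −0.39, Egln3 at −0.9998, Clec10a at −0.79, Pcdhgc4 at −4.58, Mex3b at −2.52, N4bp3 at −1.69, Fam43a at −1.69, Fam131a at −1.38 and Frat2 at −1.37. Trex1 differed by 5.01, a fitted value that depends on the prior count since the gene was at 0 on day 1, and that is no bound. Of the 62 named genes past the threshold in this comparison, 22 missed it without some one library, among them Trex1, Mki67, Fbn1, Ifi214, Apol9a and Slfn4. Fbn1 was at 0.00991 (adjusted p = 0.845) without replicate 1 of the untreated day 1 cells, the other library of which was at 0, so its value rests on that library. Without the same library Fam43a was at −2.55. Without day 1 replicate 1 of 4-OHT-treated Trex1 FL/FL cells Ifi214 was at 6.54, Ifi213 at 3.49 and Apol9a at 6.11. Without the untreated day 1 replicate 2 that stood apart, 51 of the 62 genes passed the test and 11 did not, among them Trex1, Tnf, Pfkfb3, Egln3, Msr1, Ifi214, Ifi213, Apol9a and Slfn4. Groups of 2 libraries allow no search for single libraries far from the rest of their group.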

How the results depend on the processing

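No paired analysis was possible because the labels give no replicate numbers. The running order of the sample numbers in the titles was not used to pair libraries. The 667 genes called higher and 359 lower were 3961 and 3696 at an adjusted p below 0.05 and any fold, 1082 and 813 at an absolute log2 fold change above 1, and 376 and 63 when the fold itself was tested against 1.5 (glmTreat). Leaving out each library gave 607 to 632 and 259 to 340. DESeq2 called 672 and 401, of which 652 and 350 were shared with edgeR. The 640 genes with a higher and 170 with a lower day step than 4-OHT-treated Trex1 WT/FL cells were 29 and 1 (Shisa5) with thresholds of 0.01 on the adjusted p and 1.5 on the size of the difference, and 312 and 30 when the untreated arms of both genotypes were subtracted too. Without single libraries they were 458 to 566 and 80 to 112. Against untreated Trex1 FL/FL cells, 1010 and 385 genes were 81 and 12 at the stricter thresholds, 651 were lower without a filter on low counts, and leaving out each library gave 756 to 1221 and 214 to 1166. The lower count was 1166 without day 1 replicate 1 and 227 without day 1 replicate 2 of the untreated cells, 243 without their day 2 replicate 2, and 214 and 223 without day 1 replicate 1 and day 2 replicate 2 of 4-OHT-treated Trex1 FL/FL cells. The cause of these shifts was not tested beyond the smaller numbers of libraries and the thresholds themselves. Without day 1 replicate 1 of 4-OHT-treated Trex1 FL/FL cells, the median of the MHC class II list was 0.11 and that of the alternative activation list 0.21, both of which had been below 0, and over single libraries these medians ranged from −0.24 to 0.11 and from −0.95 to 0.21. Of 116 named genes past the threshold in the day step, 13 missed it without some one library and 9 under another setting. The median over all genes stayed between −0.08 and 0.00 under the scalings tried. With 2 libraries per group, differences between day steps rest on the spread shared by all 32 libraries, and low counts limit Trex1, Ifnb1 and Gbp2b.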
